A study of Homo sapiens with 30 samples.

Results

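The HOX gene clusters were followed in nascent transcription data from A549 cells, a human lung adenocarcinoma line. Members were the rows of the count table whose gene name is HOX followed by a cluster letter from A to D and a paralog number. The rule found 40 rows of 58780, which stand for 39 genes, because HOXC5 has a second row for a processed transcript. They comprised 11 rows in HOXA, 10 in HOXB, 10 in HOXC and 9 in HOXD. Genes named HOX with another suffix, such as the antisense transcripts, are not members and are described at the end.

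Precision run-on sequencing (PRO-seq) lets RNA polymerases that are already on a gene add a tagged nucleotide to their transcripts, and the reads therefore report ongoing transcription. The 30 libraries formed 15 groups of 2 replicates, and every group was kept in 0.01% DMSO. Untreated cells carried the label of the 15 min time and served as the control for all times. Dexamethasone (Dex, a synthetic glucocorticoid) was given at 100 nM for 15 min or 3 h, and the inhibitors at 1 µM each. GSK591 blocks PRMT5, which makes symmetric dimethylarginine, and MS023 blocks the Type I enzymes, which make the asymmetric form. Each inhibitor was given alone for 2, 4 or 7 days, together with Dex for 3 h, or for 7 days before Dex, which then lasted 15 min or 3 h. The labels do not say whether the 2 replicates of a group came from separate cultures, so that p-values measure the spread between these samples, which may be technical.

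HOX genes encode homeodomain transcription factors that give cells a position along the body axis. In each cluster the genes with low paralog numbers are used toward the head and respond early to retinoic acid, and those with high numbers are used toward the tail and in the limbs. Polycomb complexes keep clusters silent, trithorax and MLL complexes keep them active, and adult cells, lung epithelium included, retain a HOX pattern that marks where they came from.

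Total counts ran from 8441211 to 13069598 per library, of which mitochondrial genes took 58.7% to 78.7%. HOX rows together held 1603 to 4193 counts per library. The epithelial keratin genes KRT8 and KRT18 had medians of 223 and 106 CPM (counts over the library's effective size, from the trimmed mean of M values, TMM), while CDH1 and EPCAM were low at 2.64 and 2.34. CDKN2A, which is deleted in this line, had 0 counts in 20 of 30 libraries and 17 counts in all. Summed fibroblast markers stood at 2.74 to 10.3 CPM, endothelial markers at 0.208 to 2.24, leukocyte markers at 0.817 to 5.92 and the haematopoietic pair at 0 to 1.31. The neuronal genes RBFOX3 and TUBB3 summed to 26.6 to 46.0 CPM. Replicates correlated with r between 0.938 and 0.982 over 18486 genes, and no pair agreed within sampling noise. As these are bulk samples, fewer transcribing cells and less transcription per cell cannot be told apart.

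Most of the HOX repertoire was transcribed. The filter on low counts kept 34 rows, namely all 11 of HOXA, 9 of HOXB, 8 of HOXC and 6 of HOXD, and these are the members tested. HOXB1, HOXC12, HOXD3, HOXD4 and HOXD12 were not tested and had 32, 109, 122, 14 and 23 counts over the 30 libraries together. The second HOXC5 row was listed at 0 throughout, and 3 counts, the limit that a count of 0 allows, would be 0.00959 CPM over all libraries. That limit covers sampling only. Genes on the same strand share 99.8% of the exonic bases of this row, 80.5% of those of HOXD4 and 62.2% of those of HOXD3. How such shared reads were counted is not given in the sources used here, so these low counts do not bound transcription there. Tested HOX members had a median of 2.14 CPM per kb of exon, against 1.59 for the 14978 tested protein-coding genes, and 20 of the 34 lay above that value. Both levels rest on exon lengths from GENCODE 29.

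HOXB was the most transcribed cluster. Its summed CPM had a median of 119.6 over libraries (81.0 to 166), against 57.1 for HOXA (48.1 to 67.9), 47.9 for HOXC (41.8 to 63.4) and 17.2 for HOXD (13.4 to 22.9). These sums are not per length. Within clusters the level per kb did not follow the paralog number. HOXB8 and HOXB7 led HOXB at 12.3 and 12.2 CPM per kb, while HOXB4, best known for expanding blood stem cells, was lowest of its tested genes at 1.02. HOXA5, which is needed for lung development, led HOXA at 5.68, and HOXA11 was lowest at 0.386. HOXC13, a regulator of hair keratin genes, led HOXC at 5.84, and HOXC10 was lowest at 0.713. In HOXD only HOXD8 exceeded 1 CPM per kb, at 4.03, and HOXD11 was lowest of those tested at 0.353. Whether reads were counted over exons or whole genes is not given in the sources used here, and over whole genes the order could differ, for HOXB7 above all, whose 1528 exonic bases lie in chr17:48607227-48633572.

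**Figure D1:**
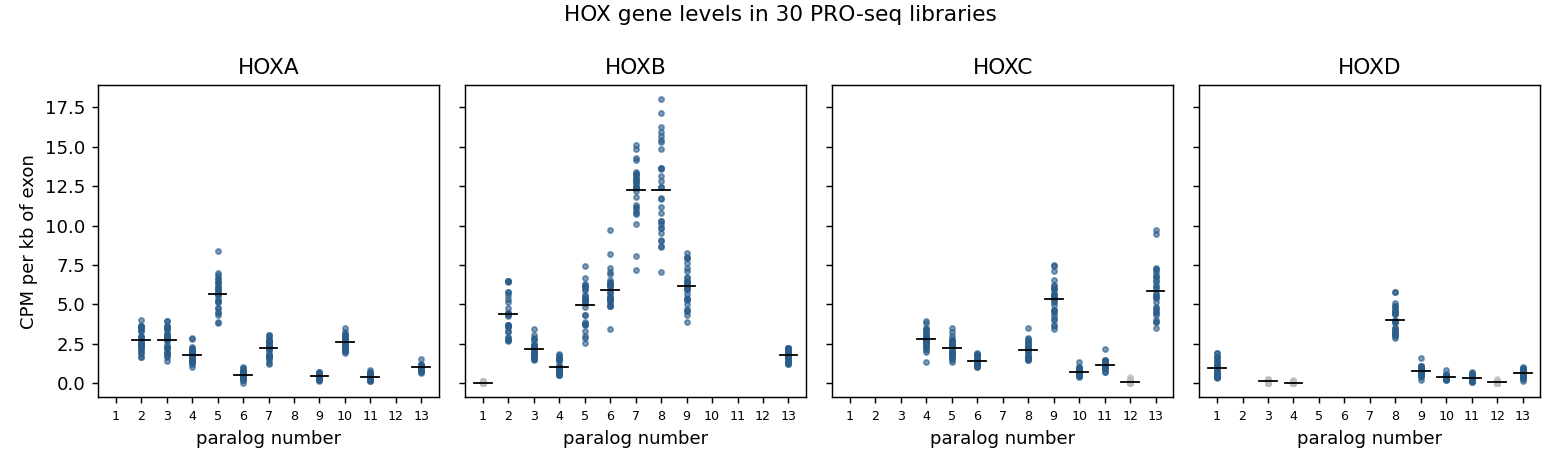
CPM per kb of exon (vertical axis) for HOX genes against the paralog number (horizontal axis), by cluster. Points are the 30 libraries, bars their mean, and grey points the 5 genes below the filter on low counts. HOXB7 and HOXB8 stand highest, HOXD8 alone stands out in HOXD, and HOXA5, HOXC9 and HOXC13 lead their clusters' remaining genes.

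Genes of a cluster lie close together and some share exons. In hg38 HOXB, HOXC and HOXD span chr17:48528526-48729178, chr12:53938765-54056030 and chr2:176092891-176190907, and HOXA lies on chromosome 7. Of the 34 tested members, 18 have exons that overlap a gene on the opposite strand and 16 share exonic bases with a gene on their own strand. The overlap on the opposite strand covers 62.5% of the exonic bases of HOXA7, shared with HOXA-AS3, and 58.1% of those of HOXD1, shared with HAGLR and AC009336.3. It covers 39.3% of HOXA6, 31.1% of HOXA11 and 15.4% of HOXA3. HOXB4 shares bases with HOXB3 on its own strand. Whether strand was used in counting is not given in the sources used here, so reads of these pairs may be split or joined.

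HOXB8, HOXB2 and HOXB4 rose with MS023. With HOXC13, which was called in 7 of the 23 comparisons, they were the members called most often, in 8, 8 and 7, at a threshold of 0.05 on the adjusted p. After 2 days 3 of the 34 tested members rose and none fell, after 4 days 4 rose and none fell, and after 7 days 3 rose and 2 fell. Over all genes tested, 10.4%, 14.2% and 13.6% were called at these times, which is the background for the HOX shares of 8.82%, 11.8% and 14.7%. HOX genes were thus called about as often as genes at large, and the result lies in which members moved.

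HOXB4 (ENSG00000182742, chr17:48575513-48580111) had 1.89 and 2.52 CPM in the untreated libraries. It had 5.77 and 5.63 after 2 days of MS023, 6.11 and 5.34 after 4 days and 6.73 and 7.02 after 7 days. All 6 MS023 libraries lay above both untreated ones. The log2 fold change was 1.36 ± 0.27 (SE), with an edgeR adjusted p of 0.000472, at 2 days, 1.36 ± 0.27 (SE), with an edgeR adjusted p of 0.000192, at 4 days, and 1.63 ± 0.26 (SE), with an edgeR adjusted p of 9.96e-06, at 7 days. Each of these calls held without any of its libraries and under all 7 alternative settings. The authors' deposited table called HOXB4 at 4 and 7 days and not at 2 days, where it gave 0.57 on the log2 scale.

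HOXB8 (chr17:48611377-48614939), whose forced expression blocks myeloid differentiation, had 17.8 and 20.2 CPM without treatment. With MS023 it had 31.4 and 32.2 on day 2, 32.6 and 37.0 on day 4 and 33.3 and 31.7 on day 7. No MS023 library overlapped the untreated ones. The log2 fold changes were 0.74 ± 0.14 (SE), with an edgeR adjusted p of 0.000236, then 0.87 ± 0.14 (SE), with an edgeR adjusted p of 7.47e-06, and 0.77 ± 0.14 (SE), with an edgeR adjusted p of 7.07e-05. HOXB2 (chr17:48540894-48544989), which patterns the hindbrain, had 7.79 and 8.56 CPM untreated, 10.4 and 8.68 on day 2, 15.2 and 15.2 on day 4 and 15.0 and 15.2 on day 7 of MS023. Its change at 2 days, 0.22 ± 0.18 (SE), did not pass the test (edgeR adjusted p = 0.509), while those at 4 and 7 days were 0.89 ± 0.17 (SE), with an edgeR adjusted p of 0.000161, and 0.88 ± 0.17 (SE), with an edgeR adjusted p of 0.000207. The HOXB8 calls and the later HOXB2 calls held without each library in turn, but the authors' deposited table did not call HOXB8 at 2 or 7 days, with 0.18 and 0.12 on the log2 scale.

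HOXB5, which acts in the developing lung and vessels, lies between HOXB4 and HOXB8 (chr17:48591257-48593961) and did not rise with them at 7 days. It had 12.0 and 11.1 CPM untreated, 11.3 and 10.4 on day 2, 15.1 and 12.2 on day 4 and 10.7 and 9.84 on day 7 of MS023. None of these changes passed the test, and that at 7 days was -0.17 ± 0.19 (SE), edgeR adjusted p = 0.607. HOXB3, whose gene spans HOXB4 and HOXB5, had 17.5 and 17.6 CPM untreated, 18.8 and 17.0 on day 2, 23.0 and 21.5 on day 4 and 25.4 and 20.7 on day 7 of MS023, with a change at 7 days of 0.39 ± 0.14 (SE) that missed the threshold (edgeR adjusted p = 0.0605). The authors' deposited tables called HOXB3 higher at all 3 times, by 0.41, 0.64 and 0.58 on the log2 scale. HOXB7, often raised in carcinomas, had 16.5 and 21.7 untreated and 16.7 and 17.1 on day 2, 19.7 and 22.7 on day 4 and 21.8 and 19.5 on day 7, with no separation of the groups.

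**Figure D2:**
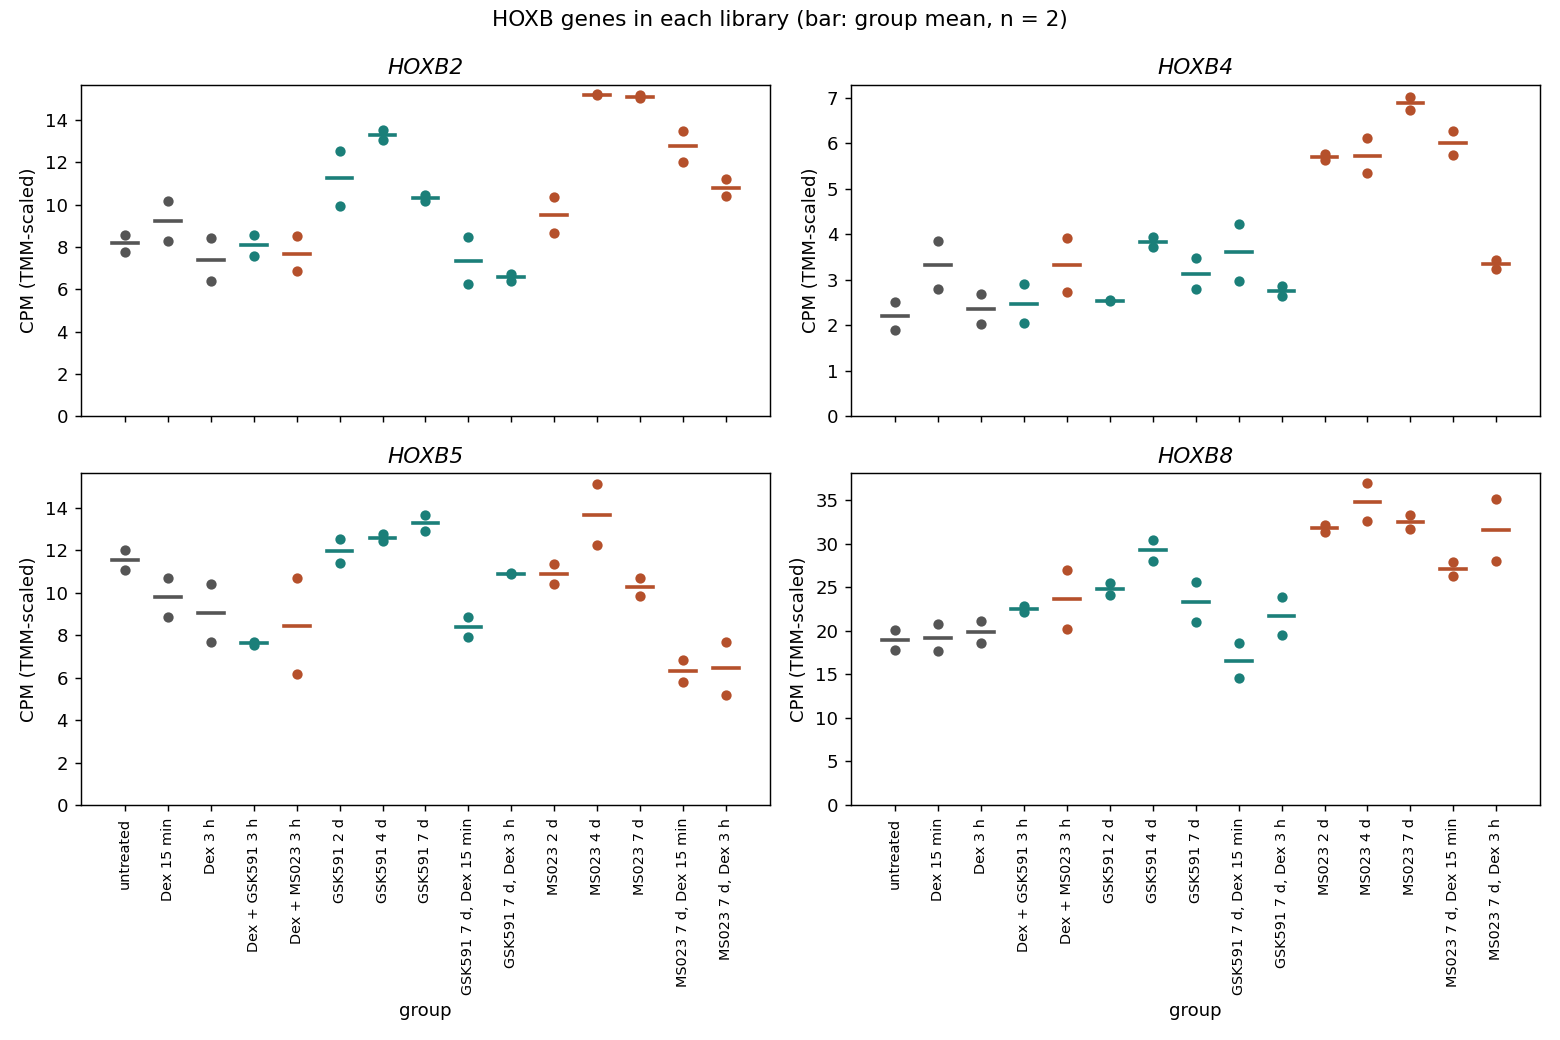
TMM-scaled CPM (vertical axis) of HOXB2, HOXB4, HOXB5 and HOXB8 in every library, by group (horizontal axis). Points are libraries and bars group means (n = 2), with groups without inhibitor in grey, with GSK591 in green and with MS023 in orange. HOXB8 is at 26.3 to 37.0 in every group with 2 or more days of MS023 and at 17.7 to 21.2 in the untreated and Dex groups, while the group means of HOXB5 are lowest where Dex follows MS023.

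Other calls with MS023 against untreated cells were fewer and less stable. HOXD8 rose at 2 days, from 8.01 and 8.46 to 15.3 and 12.2 CPM, by 0.73 ± 0.19 (SE), with an edgeR adjusted p of 0.00679; it ran from 0.56 to 0.89 with each of the 4 libraries left out and lost its call without untreated replicate 1 or MS023 2 days replicate 1. HOXA5 rose at 4 days, from 6.67 and 7.66 to 11.4 and 11.9 CPM, by 0.70 ± 0.22 (SE), with an edgeR adjusted p of 0.0284; it ran from 0.61 to 0.80 and lost its call without any 1 of the 4 libraries, and also under DESeq2. At 7 days HOXD9, a limb-patterning gene, had 1.20 and 0.434 CPM against 3.00 and 1.41 untreated, a log2 fold change of -1.40 ± 0.45 (SE), with an edgeR adjusted p of 0.0303; it ran from -2.30 to -0.77 with each of the 4 libraries left out and lost its call without untreated replicate 1 or MS023 7 days replicate 2, and under total-count scaling and DESeq2. HOXA3, which patterns the pharyngeal arches, had 15.3 and 15.5 CPM untreated and 9.92 and 11.8 on day 7, a log2 fold change of -0.51 ± 0.17 (SE), with an edgeR adjusted p of 0.0372; it ran from -0.64 to -0.39 and lost its call without any 1 of the 4 libraries, and under total-count scaling, a fit without the filter on low counts and DESeq2, and total-count scaling turned it to 0.51.

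The scaling sets the zero of these values. TMM places the median gene near 0, whereas total counts move the median of all genes by 0.68, 0.74 and 1.02 at 2, 4 and 7 days of MS023, and by 0.81 in the average below. Without mitochondrial and ribosomal RNA genes, total counts move it by 0.16, 0.29, 0.33 and 0.28. Libraries with 7 days of MS023 had 58.7% to 64.2% mitochondrial counts, against 69.2% to 76.0% in those with no inhibitor, and the part of this in the results was not tested beyond these scalings. At 7 days total counts called 29 HOX members higher and 0 lower, and totals without those genes called 11 higher and 0 lower, against 3 and 2 with TMM. For counts on the 2 other scalings, here and below, the share of all genes called is not given. They show how directions depend on the scaling and are not read as a result about HOX genes or the lists. Changes here are relative to the median gene.

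The 7-day treatments were repeated in 3 Dex states, namely none, 15 min and 3 h, and the average of the 3 differences uses 6 libraries on each side. MS023 averaged in this way raised 7 members and lowered 4 of 34, or 32.4%, where 35.8% of all genes were called. Among those raised, HOXB2, HOXB3, HOXB4, HOXB8, HOXC4 and HOXD1 rose on all 3 scalings. HOXA2, HOXA3, HOXB5 and HOXD9 fell relative to the median gene; total-count scaling turned these 4 to 0.48, 0.38, 0.38 and 0.12, and totals without mitochondrial and ribosomal RNA gave -0.052, -0.15, -0.16 and -0.42, none of them called. On the former scale 31 members were called higher and 0 lower, and on the latter 21 and 0.

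In the averaged comparison HOXB4 changed by 1.00 ± 0.15 (SE), with an edgeR adjusted p of 8.37e-07, HOXB8 by 0.65 ± 0.081 (SE), with an edgeR adjusted p of 9.47e-09, and HOXB2 by 0.63 ± 0.10 (SE), with an edgeR adjusted p of 1.8e-06. With Dex for 15 min after MS023 the libraries had 26.3 and 27.9 CPM of HOXB8, against 20.7 and 17.7 with Dex alone, and with Dex for 3 h they had 28.0 and 35.1 against 21.2 and 18.6. HOXB2 had 12.0 and 13.5 against 10.2 and 8.30 at 15 min and 10.4 and 11.2 against 6.38 and 8.43 at 3 h. HOXB4 had 6.28 and 5.74 against 3.85 and 2.80 at 15 min and 3.44 and 3.25 against 2.02 and 2.69 at 3 h, and the last difference did not pass the test (0.52 ± 0.29 SE, edgeR adjusted p = 0.261). HOXB3 changed by 0.30 ± 0.088 (SE), with an edgeR adjusted p of 0.00542. The calls of HOXB2, HOXB3, HOXB4 and HOXB8 held without each of the 12 libraries in turn and under all 7 settings.

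Rises with MS023 also occurred outside HOXB. HOXD1, which acts in sensory neurons, rose by 1.06 ± 0.22 (SE), with an edgeR adjusted p of 0.00012, and held without each library. HOXC4, which takes part in antibody gene diversification in B cells, rose by 0.33 ± 0.12 (SE), with an edgeR adjusted p of 0.0196; it ran from 0.30 to 0.38 with each of the 12 libraries left out and lost its call without Dex 3 h replicate 2, MS023 7 days replicate 2 or MS023 then Dex 15 min replicate 1, and under DESeq2. Of the 4 that fell on the TMM scale, HOXA3 (-0.42 ± 0.10 SE, edgeR adjusted p = 0.00136) and HOXB5 (-0.43 ± 0.11 SE, edgeR adjusted p = 0.00237) held without each library. HOXA2 changed by -0.32 ± 0.13 (SE), with an edgeR adjusted p of 0.0414; it ran from -0.38 to -0.26 over the 12 leave-one-out fits and stayed called only in those without Dex 15 min replicate 2, MS023 7 days replicate 2 or MS023 then Dex 3 h replicate 2, and it was also lost under DESeq2 size factors, a fit without the filter on low counts and DESeq2. HOXD9 changed by -0.69 ± 0.26 (SE), with an edgeR adjusted p of 0.0352; it ran from -0.99 to -0.48 over the 12 leave-one-out fits and stayed called only in those without untreated replicate 2, Dex 15 min replicate 2, Dex 3 h replicate 1, MS023 7 days replicate 1 or MS023 then Dex 15 min replicate 2, and it was also lost under total-count scaling, a fit without the filter on low counts and DESeq2.

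Among single states of MS023 with Dex, 15.3% of all genes were called at 15 min and 11.5% at 3 h. At 15 min HOXB8 (0.50 ± 0.14 SE, edgeR adjusted p = 0.0115), HOXB4 (0.85 ± 0.24 SE, edgeR adjusted p = 0.0131) and HOXD1 (1.43 ± 0.36 SE, edgeR adjusted p = 0.00454) rose, and HOXB5 fell relative to the median gene (-0.63 ± 0.20 SE, edgeR adjusted p = 0.0261). HOXB5 stood at -0.086 on total counts, which called 9 members higher and 0 lower, and totals without mitochondrial and ribosomal RNA 5 and 0. DESeq2 called neither HOXB4 nor HOXB5. HOXB8 was not called without Dex 15 min replicate 2 or MS023 then Dex 15 min replicate 2 (0.39 at the lowest), and the other 3 were not called without Dex 15 min replicate 2 or MS023 then Dex 15 min replicate 1. At 3 h 3 members rose and none fell, among them HOXB8 (0.67 ± 0.14 SE, edgeR adjusted p = 0.000777) and HOXB2 (0.55 ± 0.18 SE, edgeR adjusted p = 0.0373). The HOXB8 value ran from 0.50 to 0.83 with each of the 4 libraries left out and lost its call without MS023 then Dex 3 h replicate 2; the HOXB2 value ran from 0.36 to 0.76 with each of the 4 libraries left out and lost its call without Dex 3 h replicate 1, MS023 then Dex 3 h replicate 1 or MS023 then Dex 3 h replicate 2, and under a fit without the filter on low counts, DESeq2 and a fit of the compared groups alone.

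GSK591 gave fewer HOX calls against untreated cells. No member passed the test at 2 days with edgeR, where 7 had an unadjusted p under 0.05 and 5.64% of all genes were called. DESeq2 also called 0, the fit of the compared groups alone 3, and the fit with a replicate block 1. At 4 days 2 rose and none fell, with 17.2% of all genes called, and at 7 days 2 rose and none fell, with 13.2%. The 2 on day 4 were HOXB8, from 17.8 and 20.2 to 28.0 and 30.5 CPM (0.62 ± 0.14 SE, edgeR adjusted p = 0.00122), and HOXB2, from 7.79 and 8.56 to 13.1 and 13.5 (0.70 ± 0.18 SE, edgeR adjusted p = 0.00362). The HOXB8 value ran from 0.54 to 0.72 and stayed called without each of the 4 libraries in turn, and the HOXB2 value ran from 0.63 to 0.77 with each of the 4 libraries left out and lost its call without untreated replicate 1. At 2 days HOXB8 stood at 24.1 and 25.5 CPM and HOXB2 at 9.95 and 12.5, and at 7 days HOXB8 at 25.6 and 21.0 and HOXB2 at 10.5 and 10.2, all above the untreated libraries without passing the test. HOXB4 had 2.55 and 2.53 CPM on day 2, 3.94 and 3.71 on day 4 and 2.79 and 3.48 on day 7.

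At 7 days of GSK591 the called members were HOXC13 and HOXD1. HOXC13 (chr12:53938765-53946544) had 11.0 and 9.37 CPM untreated, 8.47 and 9.77 on day 2, 13.6 and 11.5 on day 4 and 14.8 and 16.5 on day 7. Its change at 7 days was 0.62 ± 0.17 (SE), with an edgeR adjusted p of 0.0106; it ran from 0.50 to 0.73 with each of the 4 libraries left out and lost its call without untreated replicate 2 or GSK591 7 days replicate 2, and under total-count scaling. HOXD1 (chr2:176188579-176190907) had 1.33 and 1.51 CPM untreated, 0.672 and 0.804 on day 2, 2.11 and 0.903 on day 4 and 3.25 and 3.75 on day 7, so that both 7-day libraries lay above the rest of the course. Its change at 7 days was 1.29 ± 0.38 (SE), with an edgeR adjusted p of 0.0163; it ran from 1.18 to 1.39 and lost its call without any 1 of the 4 libraries, and under total-count scaling and DESeq2.

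Averaged over the 3 Dex states, 7 days of GSK591 raised 5 members, among them HOXA2, HOXC4, HOXC13 and HOXD1, and lowered HOXA10, HOXB7 and HOXD11. The 8 called are 23.5% of the tested members, against 33.7% of all genes. Total counts, which move the median of all genes by -0.10, called 2 higher and 2 lower, and totals without mitochondrial and ribosomal RNA 5 and 2. HOXC13 changed by 0.54 ± 0.095 (SE), with an edgeR adjusted p of 1.01e-05, and HOXD1 by 1.02 ± 0.23 (SE), with an edgeR adjusted p of 0.000423, both also called under all 7 settings and without each library. HOXC4 changed by 0.50 ± 0.12 (SE), with an edgeR adjusted p of 0.000846, and HOXA2 by 0.41 ± 0.12 (SE), with an edgeR adjusted p of 0.00816, both lost only under total-count scaling. HOXD11, a limb and kidney gene, changed by -1.18 ± 0.40 (SE), with an edgeR adjusted p of 0.0182; it ran from -1.41 to -0.99 with each of the 12 libraries left out and lost its call without Dex 3 h replicate 2 or GSK591 7 days replicate 1, and under DESeq2. HOXB7 changed by -0.25 ± 0.087 (SE), with an edgeR adjusted p of 0.0207; it ran from -0.31 to -0.18 with each of the 12 libraries left out and lost its call without untreated replicate 2, GSK591 7 days replicate 2 or GSK591 then Dex 15 min replicate 2, and under DESeq2. HOXA10, a regulator of the uterus, changed by -0.28 ± 0.11 (SE), with an edgeR adjusted p of 0.0391; it ran from -0.36 to -0.20 over the 12 leave-one-out fits and stayed called only in those without Dex 15 min replicate 2, Dex 3 h replicate 1, GSK591 7 days replicate 1 or GSK591 then Dex 3 h replicate 1, and it was lost under DESeq2 size factors, total-count scaling, DESeq2 and a fit of the compared groups alone.

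HOXC4 had 6.78 and 7.36 CPM untreated and 7.26 and 7.81 on day 2, 6.53 and 7.12 on day 4 and 10.7 and 8.71 on day 7 of GSK591. With MS023 it had 8.02 and 7.11 on day 2, 8.53 and 7.41 on day 4 and 8.07 and 9.63 on day 7, and the 7-day libraries of both inhibitors lay above both untreated ones, as did those at 4 days of MS023. HOXD1 had 0.782 and 0.738 on day 2, 2.34 and 1.85 on day 4 and 2.76 and 2.03 on day 7 of MS023, low at 2 days as with GSK591. With Dex for 15 min it had 1.28 and 1.30 without inhibitor, 1.91 and 1.83 after GSK591 and 3.75 and 3.25 after MS023, and with Dex for 3 h it had 1.28 and 1.22 without inhibitor, 3.31 and 2.64 after GSK591 and 2.86 and 2.14 after MS023. In all 6 libraries of 7-day GSK591 and all 6 of 7-day MS023, HOXD1 lay above all 6 without inhibitor.

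The promoters of HOXD1 and HOXA2 are shown because HOXD1 rose with both inhibitors, while HOXA2 rose with GSK591 and fell relative to the median gene with MS023 (but not on total counts, as above). They come from RefSeq on GRCh38.p14 and run from 250 bases before to 50 bases after the start, 5′ to 3′, with each CG in capitals. The table held 27 promoters of 20 of the 39 genes, with 0 to 44 CG and a median of 22, against a median of 14 over 35116 promoters. The HOXD1 window (chr2:176188418-176188717, plus strand) has 36 CG and the HOXA2 window (chr7:27102634-27102933, minus strand) has 11.
HOXD1: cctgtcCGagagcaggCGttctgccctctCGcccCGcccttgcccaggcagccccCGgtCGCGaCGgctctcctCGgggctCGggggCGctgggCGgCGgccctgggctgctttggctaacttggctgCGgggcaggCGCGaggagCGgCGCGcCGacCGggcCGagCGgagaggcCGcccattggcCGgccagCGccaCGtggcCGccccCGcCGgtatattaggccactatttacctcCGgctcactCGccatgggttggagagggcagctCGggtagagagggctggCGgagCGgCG
HOXA2: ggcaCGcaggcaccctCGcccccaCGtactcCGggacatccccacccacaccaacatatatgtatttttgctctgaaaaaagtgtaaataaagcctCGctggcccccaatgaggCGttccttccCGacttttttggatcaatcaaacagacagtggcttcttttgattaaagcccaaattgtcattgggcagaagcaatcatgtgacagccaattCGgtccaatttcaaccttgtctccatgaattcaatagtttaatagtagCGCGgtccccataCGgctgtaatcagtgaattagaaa
The HOXD1 window has more CG than 87.3% of all windows, and the HOXA2 window has more than 45.3% of them. The letters TGATTNAT, a site that HOX proteins share with their cofactors, were found on either strand in 2 of the 27 windows, those of HOXA2 and HOXD11, and in 2.82% of all windows. TATAAA was found in 5 of 27, and in 11.5% of all. The glucocorticoid receptor palindrome (AGAACA, any 3 bases, TGTTCT) was in none of the 27, and in 0.00285% of all windows. A match describes these letters only.

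GSK591 and MS023 were compared directly at 7 days, averaged over the same 3 Dex states. Of the 34 members, 15 differed (44.1%), against 31.1% of all genes, with 6 higher and 9 lower with GSK591. The HOXB genes HOXB2 (-0.69 ± 0.10 SE, edgeR adjusted p = 4.99e-07), HOXB4 (-0.73 ± 0.15 SE, edgeR adjusted p = 0.000151), HOXB8 (-0.58 ± 0.081 SE, edgeR adjusted p = 1.38e-07) and HOXB3 (-0.38 ± 0.090 SE, edgeR adjusted p = 0.000771) were lower with GSK591, without each library and on every scaling. HOXB5 was higher with GSK591, by 0.52 ± 0.12 (SE), with an edgeR adjusted p of 0.000411, as were the hindbrain gene HOXA2 (0.74 ± 0.12 SE, edgeR adjusted p = 4.97e-06), HOXC13 (0.45 ± 0.091 SE, edgeR adjusted p = 0.000102) and HOXA3 (0.40 ± 0.10 SE, edgeR adjusted p = 0.00252). For these 4, total-count scaling, which moves the median of all genes by -0.94, gave -0.39, -0.17, -0.46 and -0.49. The HOXA3 call was also lost without GSK591 then Dex 3 h replicate 1 (0.27). Total counts called 0 members higher and 32 lower with GSK591, and totals without mitochondrial and ribosomal RNA 1 and 16.

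HOXA2 had 8.90 and 8.16 CPM untreated, 9.88 and 8.98 after 7 days of GSK591 and 5.24 and 6.80 after 7 days of MS023. With Dex for 15 min it had 7.21 and 5.90 without inhibitor, 8.88 and 8.47 after GSK591 and 5.82 and 5.91 after MS023, and with Dex for 3 h it had 5.31 and 5.62 without inhibitor, 8.82 and 8.83 after GSK591 and 4.10 and 4.72 after MS023. The 6 GSK591 libraries all lay above the 6 MS023 libraries on the TMM scale. At the earlier times the inhibitors overlapped, with 6.45 and 4.02 on day 2 and 6.24 and 7.02 on day 4 of GSK591, and 8.12 and 5.91 on day 2 and 6.25 and 7.41 on day 4 of MS023. The 7 remaining members that differed did so less stably. HOXA10 (-0.33), HOXA11 (-0.95), HOXB6 (-0.24), HOXB7 (-0.25) and HOXB9 (-0.27) were lower with GSK591, and HOXC11 (0.44) and HOXD8 (0.29) higher, with edgeR adjusted p from 0.0141 to 0.046. Each of these 7 lost its call under DESeq2 and without 2 or more of the 12 libraries, and total counts turned HOXC11 and HOXD8 to -0.48 and -0.60.

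**Figure D3:**
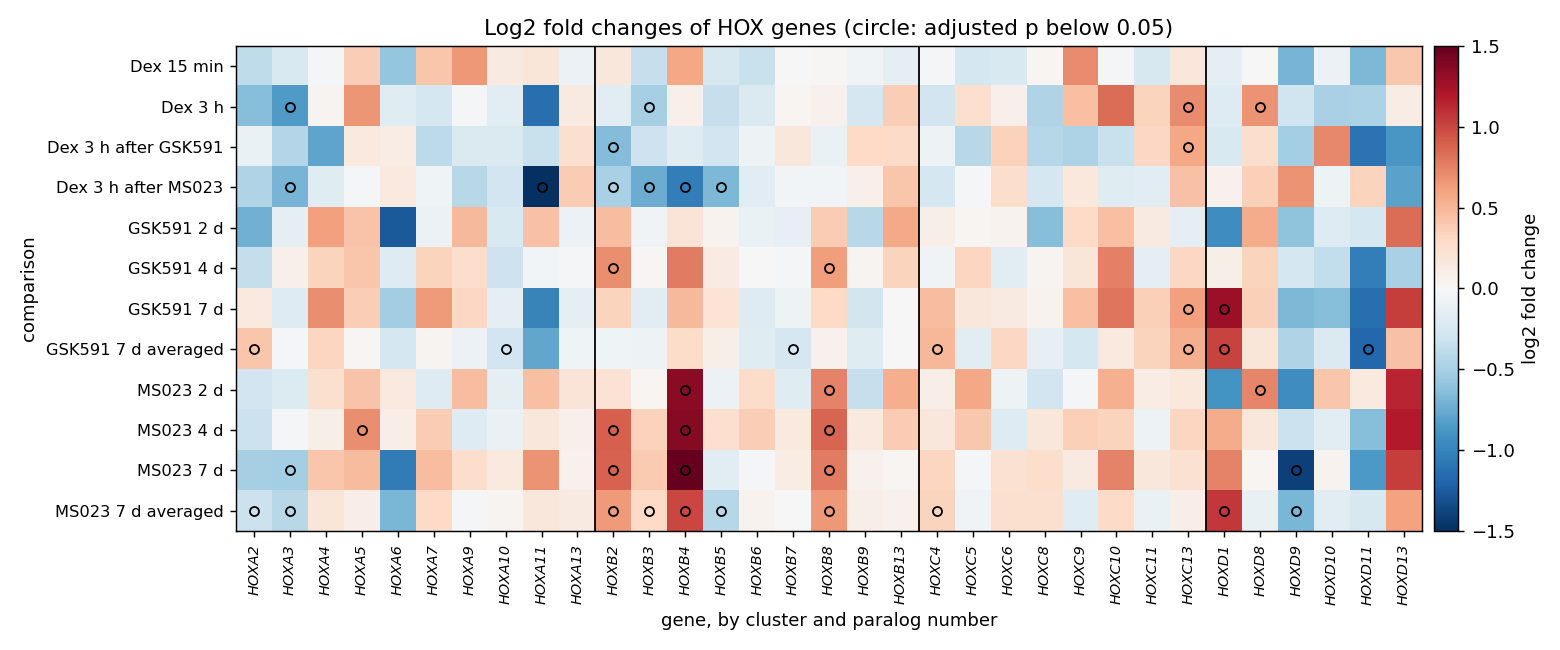
Log2 fold change (colour, limited to 1.5 either way) of tested HOX genes (horizontal axis) in 12 comparisons (vertical axis), with a circle where the edgeR adjusted p was below 0.05. HOXB2, HOXB4 and HOXB8 are red and circled at 4 and 7 days of MS023, and no circle stands in the rows for Dex at 15 min and GSK591 on day 2.

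In single Dex states, GSK591 for 7 days followed by Dex for 15 min gave 1 rise and 4 falls against Dex for 15 min, with 15.3% of all genes called. HOXB7 fell from 19.1 and 19.3 to 12.3 and 11.0 CPM (-0.73 ± 0.15 SE, edgeR adjusted p = 0.000602), and held without each library. Both other scalings called 5 lower and 0 higher. HOXA7 fell (-0.9976 ± 0.25 SE, edgeR adjusted p = 0.00391), as did HOXC9 (-0.79 ± 0.23 SE, edgeR adjusted p = 0.0173) and HOXB9 (-0.56 ± 0.17 SE, edgeR adjusted p = 0.0215), and HOXC13 rose (0.52 ± 0.17 SE, edgeR adjusted p = 0.0244). The HOXA7 value ran from -1.14 to -0.84 with each of the 4 libraries left out and lost its call without Dex 15 min replicate 1 or GSK591 then Dex 15 min replicate 2. For HOXC9 and HOXB9 the calls were lost without either Dex 15 min library or GSK591 then Dex 15 min replicate 2 (values of -0.70 and -0.43 at the weakest). DESeq2 called neither, and the fit of the compared groups alone did not call HOXB9. The HOXC13 value ran from 0.45 to 0.60 and lost its call without any 1 of the 4 libraries, and under total-count scaling, a fit without the filter on low counts, DESeq2 and a fit of the compared groups alone. Against Dex for 3 h, GSK591 followed by Dex for 3 h gave 5 rises and no fall, with 13.6% of all genes called. Among these were HOXC4 (0.67 ± 0.21 SE, edgeR adjusted p = 0.0255), HOXD1 (1.24 ± 0.40 SE, edgeR adjusted p = 0.0277), HOXC13 (0.48 ± 0.15 SE, edgeR adjusted p = 0.0282) and HOXA2 (0.69 ± 0.23 SE, edgeR adjusted p = 0.0306). None of the 5 was called under DESeq2 or total-count scaling, and HOXC4, HOXD1, HOXC13 and HOXA2 each lost their call without any 1 of their 4 libraries and without the filter on low counts.

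With Dex for 3 h HOXC4 had 6.17 and 5.37 CPM without inhibitor, 9.26 and 9.17 after GSK591 and 7.47 and 7.23 after MS023, and with Dex for 15 min 6.91 and 7.10 without inhibitor, 10.4 and 7.89 after GSK591 and 9.34 and 8.32 after MS023. HOXB7 had 16.4 and 18.6 CPM on day 2, 20.3 and 17.2 on day 4 and 19.1 and 17.0 on day 7 of GSK591 alone, within or near the untreated range, and 20.3 and 20.3 where Dex for 3 h followed. Its low values were thus those of GSK591 then Dex 15 min. That group also had the lowest HOX sum, 194 and 219 CPM, against 228 and 240 in untreated cells.

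Signs across the 3 Dex states, which share no library, were no more uniform for HOX genes than for others. With GSK591, 9 of 34 members were positive in all 3 and 6 negative in all 3, together 44.1%, against 54.9% of the 22919 genes tested. With MS023, 11 were positive and 5 negative in all 3, together 47.1%, against 57.4%.

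With Dex alone for 3 h, HOX genes were called about as often as genes at large. At 15 min no member passed the edgeR test, where 3 had an unadjusted p under 0.05 and 1.26% of all genes were called. DESeq2 called 0, while 1 was called under both other scalings, without the filter on low counts and in the fit of the compared groups alone. At 3 h HOXC13 and HOXD8 rose and HOXA3 and HOXB3 fell, 11.8% of the members, with 10.5% of all genes called. Total counts, which move the median of all genes by 0.15, called 1 higher and 0 lower, and totals without mitochondrial and ribosomal RNA 2 and 1. HOXA3 (chr7:27106184-27152581) fell from 15.3 and 15.5 CPM to 7.87 and 9.28, while at 15 min it had 11.5 and 14.9. The 3 h log2 fold change was -0.85 ± 0.19 (SE), with an edgeR adjusted p of 0.000924; it ran from -0.97 to -0.73 and stayed called without each of the 4 libraries in turn, but it was not called under total-count scaling (-0.68).

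HOXC13 had 11.3 and 11.7 CPM with Dex for 15 min and 15.7 and 17.6 for 3 h, the latter above both untreated libraries. Its change at 3 h was 0.71 ± 0.17 (SE), with an edgeR adjusted p of 0.00262; it ran from 0.59 to 0.83 with each of the 4 libraries left out and lost its call without untreated replicate 2 or Dex 3 h replicate 2. HOXB3 had 13.1 and 14.5 at 15 min and 12.8 and 12.0 at 3 h, a change at 3 h of -0.50 ± 0.16 (SE), with an edgeR adjusted p of 0.0335. HOXD8, a gene of the trunk and limb, had 8.79 and 7.80 at 15 min and 13.4 and 12.8 at 3 h, a change at 3 h of 0.67 ± 0.19 (SE), with an edgeR adjusted p of 0.0151. HOXB3 (-0.55 to -0.46) and HOXD8 (0.63 to 0.71) each lost their call without any 1 of the 4 libraries and under DESeq2 and total-count scaling.

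No HOX gene was called when an inhibitor was added to Dex for the same 3 h. Both counts were 0 by edgeR and by DESeq2, with 0% of all genes called for GSK591 and 0.196% for MS023, and 1 member in each had an unadjusted p under 0.05. HOXC13 had 16.3 and 15.1 CPM with Dex and GSK591 and 17.0 and 16.3 with Dex and MS023. Its 95% interval of the log2 difference from Dex alone was -0.40 to 0.24 with GSK591 and -0.32 to 0.32 with MS023. HOXA3 had 9.60 and 8.22 with GSK591 and 8.20 and 8.41 with MS023, low as with Dex alone.

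Under co-treatment with GSK591, no HOXB gene passed the test against Dex alone. Over all 34 members the changes ran from -0.70 to 0.55 on the log2 scale, and 22 were positive. HOXB9, a gene of the thorax, had 16.6 and 11.2 CPM with Dex alone, 20.5 and 20.5 with GSK591 and 20.7 and 15.6 with MS023. Its difference from Dex alone, the largest in HOXB with GSK591, was 0.55 ± 0.16 (SE), edgeR adjusted p = 0.764. HOXB8 had 22.9 and 22.2 with GSK591 and 27.0 and 20.3 with MS023, the first MS023 library being high. HOXB5 had 7.56 and 7.70 with GSK591 and 10.7 and 6.16 with MS023, where the same library was again the higher. HOXB2 had 8.58 and 7.59 with GSK591 and 8.53 and 6.85 with MS023, HOXB3 14.0 and 14.9 and then 14.8 and 11.3, and HOXB4 2.04 and 2.91 and then 2.73 and 3.91. HOXB7 had 18.1 and 23.1 with GSK591 and 19.5 and 19.7 with MS023. These 4 genes overlapped between the co-treatments.

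Of the other members named by their calls, HOXA2 had 7.15 and 4.78 with GSK591 and 5.91 and 5.48 with MS023. HOXC4 had 6.33 and 5.72 with GSK591 and 6.23 and 3.72 with MS023, and HOXD1 2.35 and 0.936 and then 1.31 and 1.08. The rise of HOXD1 after 7 days was not seen at 3 h in either co-treatment beyond the first GSK591 library.

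The response to Dex was also measured after 7 days of inhibitor. After GSK591, Dex for 15 min lowered HOXA7 (-1.22 ± 0.25 SE, edgeR adjusted p = 0.00291) and HOXB7 (-0.64 ± 0.16 SE, edgeR adjusted p = 0.0162), with 2.09% of all genes called. The HOXA7 value ran from -1.36 to -1.06 with each of the 4 libraries left out and lost its call without GSK591 then Dex 15 min replicate 2, and total-count scaling also ended the call. The HOXB7 value ran from -0.72 to -0.56 with each of the 4 libraries left out and lost its call without GSK591 7 days replicate 1 or GSK591 then Dex 15 min replicate 2, and under total-count scaling, DESeq2 and a fit of the compared groups alone. Dex for 3 h after GSK591 raised HOXC13 from 14.8 and 16.5 to 23.6 and 22.9 CPM (0.58 ± 0.16 SE, edgeR adjusted p = 0.0107) and lowered HOXB2 from 10.5 and 10.2 to 6.73 and 6.42 (-0.65 ± 0.20 SE, edgeR adjusted p = 0.0229), with 9.85% of all genes called. Both other scalings called 1 higher and 0 lower. The HOXC13 value ran from 0.50 to 0.66 with each of the 4 libraries left out and lost its call without GSK591 7 days replicate 1 or GSK591 then Dex 3 h replicate 1, and under DESeq2; the HOXB2 value ran from -0.69 to -0.62 and lost its call without any 1 of the 4 libraries, and under total-count scaling and DESeq2. HOXC13 reached its highest level of any group there, and had 17.3 and 15.7 CPM where Dex had acted for 15 min after GSK591.

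After 7 days of MS023, Dex for 15 min lowered HOXB5 from 10.7 and 9.84 to 5.82 and 6.83 CPM (-0.70 ± 0.19 SE, edgeR adjusted p = 0.0381), with 2.07% of all genes called; it ran from -0.82 to -0.58 and lost its call without any 1 of the 4 libraries, and under total-count scaling and DESeq2. Dex for 3 h after MS023 lowered 6 members and raised none, 17.6% of the members against 11.1% of all genes. HOXB4 fell from 6.73 and 7.02 to 3.44 and 3.25 CPM (-1.04 ± 0.23 SE, edgeR adjusted p = 0.000917) and HOXB3 from 25.4 and 20.7 to 13.8 and 13.7 (-0.75 ± 0.14 SE, edgeR adjusted p = 0.000137). Both held under all settings and without each library. HOXA3 fell from 9.92 and 11.8 to 6.15 and 7.23 CPM (-0.70 ± 0.18 SE, edgeR adjusted p = 0.00541); it ran from -0.81 to -0.56 with each of the 4 libraries left out and lost its call without MS023 7 days replicate 2 or MS023 then Dex 3 h replicate 1, and under total-count scaling. HOXB5 fell to 5.20 and 7.68 CPM (-0.67 ± 0.19 SE, edgeR adjusted p = 0.0129); it ran from -0.98 to -0.41 with each of the 4 libraries left out and lost its call without MS023 7 days replicate 1 or MS023 then Dex 3 h replicate 1, and under total-count scaling and DESeq2. HOXA11 (-1.73 ± 0.48 SE, edgeR adjusted p = 0.0102) lost its call without MS023 7 days replicate 2 or either MS023 then Dex 3 h library (-1.47 at the weakest) and under DESeq2, and HOXB2 (-0.48 ± 0.16 SE, edgeR adjusted p = 0.0369) without any 1 of its 4 libraries (-0.42 at the weakest) and under total-count scaling, a fit without the filter on low counts and DESeq2. HOXC13 had 9.48 and 13.2 CPM on day 2, 12.4 and 13.1 on day 4 and 10.6 and 13.2 on day 7 of MS023, then 10.7 and 13.7 with Dex for 15 min and 14.6 and 17.6 with Dex for 3 h, the last a change of 0.44 ± 0.15 (SE) that missed the threshold (edgeR adjusted p = 0.0509).

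Calls in one state and not in another do not show that the response to Dex differed. The interaction, which is the 3 h response after the inhibitor minus that without it, was called for no member with either inhibitor by edgeR, where 0.223% of all genes were called with GSK591 and 0.223% with MS023, and 2 members each had an unadjusted p under 0.05. DESeq2 also called 0 members for both. For HOXB4 with MS023 the interaction was -1.11 ± 0.40 (SE), edgeR adjusted p = 0.294, with a 95% interval of -1.91 to -0.31. For HOXC13 the interval was -0.60 to 0.33 with GSK591 and -0.73 to 0.19 with MS023, and for HOXA3 it was -0.12 to 0.95 with GSK591 and -0.37 to 0.68 with MS023. Over the 3 responses to Dex for 3 h, which share no library, 5 members were positive in all and 13 negative in all, 52.9% together, against 48.8% of all genes.

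The low level of HOXA3 under Dex for 3 h recurred after MS023, and after GSK591 in 1 library. It had 12.8 and 14.9 CPM on day 2, 17.1 and 15.5 on day 4 and 14.5 and 12.5 on day 7 of GSK591, then 12.3 and 12.6 with Dex for 15 min and 12.4 and 7.57 with Dex for 3 h. With MS023 it had 13.3 and 13.5 on day 2, 13.4 and 17.0 on day 4 and 9.80 and 10.3 with Dex for 15 min after 7 days. HOXB3, a hindbrain gene, had 17.9 and 16.1 on day 2, 15.3 and 20.4 on day 4 and 15.8 and 15.5 on day 7 of GSK591, then 11.5 and 14.0 with Dex for 15 min and 11.0 and 14.3 for 3 h. After MS023 and Dex for 15 min it had 18.3 and 17.3, above the same state after GSK591.

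HOXB5 was lower with Dex than without it after 7 days of either inhibitor. It had 11.4 and 12.5 CPM on day 2, 12.8 and 12.4 on day 4 and 12.9 and 13.7 on day 7 of GSK591, then 7.92 and 8.85 with Dex for 15 min and 10.9 and 10.9 for 3 h. Dex alone gave 8.88 and 10.7 at 15 min and 10.4 and 7.69 at 3 h, where neither change from untreated passed the test (log2 -0.24 ± 0.19 (SE) and -0.34 ± 0.20 (SE), edgeR adjusted p = 0.907 and 0.318). The difference was thus called only after MS023, and whether it differed from that after GSK591 was not tested.

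After GSK591 and Dex, the HOXB genes that rose with MS023 lay near their levels with Dex alone. HOXB8 had 18.6 and 14.5 CPM with Dex for 15 min and 23.9 and 19.5 for 3 h. HOXB4 had 4.23 and 2.98 with Dex for 15 min and 2.65 and 2.87 for 3 h, and HOXB2 8.47 and 6.25 with Dex for 15 min. None of the 3 passed the test against Dex alone. HOXB7 had 15.4 and 18.9 with Dex for 15 min and 20.4 and 19.9 for 3 h after MS023, against 19.0 and 20.0 with Dex for 3 h alone, and stayed within the range of the untreated pair but for 1 library.

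**Figure D4:**
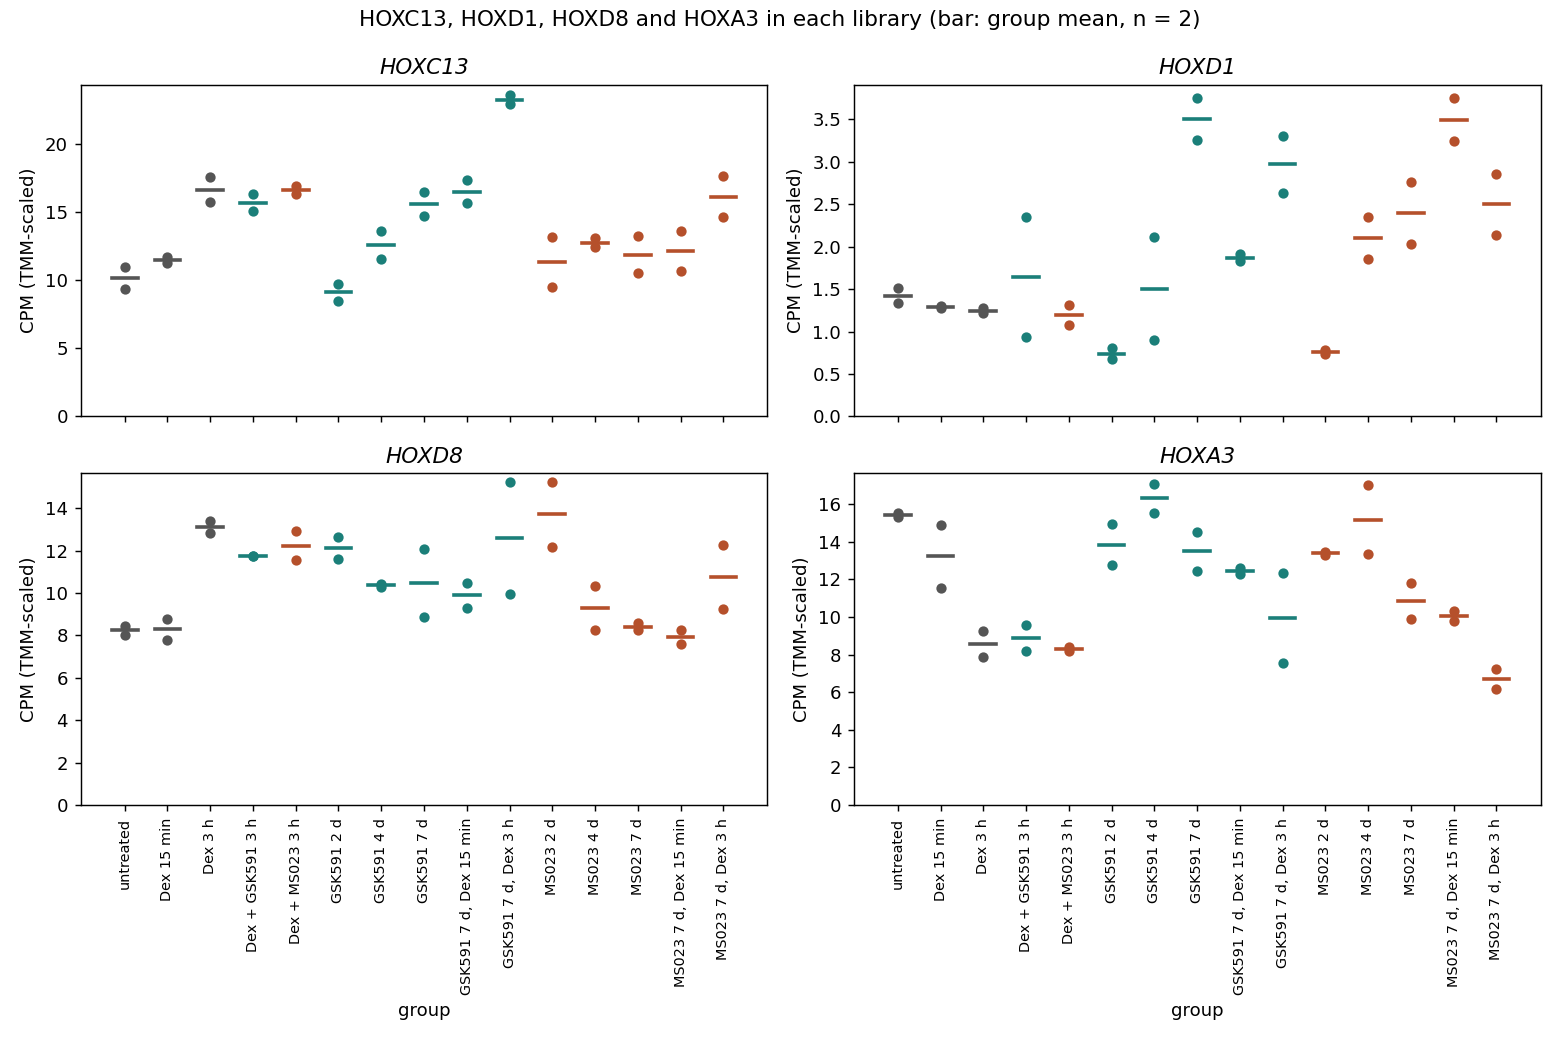
TMM-scaled CPM (vertical axis) of HOXC13, HOXD1, HOXD8 and HOXA3 in every library, by group (horizontal axis). Points are libraries and bars group means (n = 2), in the colours grey (no inhibitor), green (GSK591) and orange (MS023). HOXC13 is highest, at 23.6 and 22.9, where Dex for 3 h followed GSK591, HOXD1 is higher in all groups with 7 days of either inhibitor than without, and the group means of HOXA3 are lowest in the groups with Dex for 3 h.

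Of the 34 tested members, 23 were called in at least 1 comparison. The matching share of all genes is not given here, so nothing is read from this count. Of the called members, 7 were called only higher, 9 only lower and 7 in both directions. These directions include the direct comparison of the inhibitors, where lower means lower with GSK591 than with MS023. HOXB6 and HOXC11 were called there alone, and the 1 lower call of HOXB8 was also there. The 11 never called were HOXA4, HOXA6, HOXA9, HOXA13, HOXB13, HOXC5, HOXC6, HOXC8, HOXC10, HOXD10 and HOXD13, with mean levels of 0.702 to 6.14 CPM. Their intervals differ in width. HOXB13, a prostate and tail-end gene, had an averaged change of -0.0024 ± 0.14 (SE) with GSK591 (95% interval -0.28 to 0.28) and 0.067 ± 0.13 (SE) with MS023 (-0.19 to 0.33). HOXA13, which shapes the digits, had -0.061 with GSK591 (95% interval -0.36 to 0.24) and 0.14 with MS023 (-0.14 to 0.42). HOXA6, a low-count member, had -0.27 with GSK591 (95% interval -1.09 to 0.56) and -0.69 with MS023 (-1.49 to 0.11), so that its intervals were the widest of these 3. HOXD13, a digit gene, came nearest to a call in the averaged comparisons, with MS023, at 0.61 ± 0.25 (SE), edgeR adjusted p = 0.0545.

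The authors' deposited tables, which rest on another counting of the reads, list 38 of the 39 genes, all but HOXA4, and give 21 to 30 of them an adjusted p. At an adjusted p under 0.05, the authors' deposited table for Dex at 3 h called 4 members, 3 of them also called by edgeR in the same direction (HOXC13, HOXA3 and HOXB3), where 21.9% of its genes with an adjusted p were called. In the authors' deposited table for Dex at 15 min none was called, at a background of 3.93%. For GSK591 the authors' deposited tables called 1 member at 2 days, 3 on day 4 and 1 on day 7, with backgrounds of 14.7%, 26.8% and 23.8%. HOXB2 and HOXB8 on day 4 were called by both, and at 7 days the authors' deposited table called HOXA3 lower (-0.44), where edgeR gave -0.19 ± 0.18 (SE), and neither HOXC13 nor HOXD1. For MS023 they called 3, 5 and 4 members at 2, 4 and 7 days, with backgrounds of 17.7%, 22.5% and 22% in the authors' deposited tables. At 7 days HOXB2, HOXB4 and HOXA3 were called by both in the same direction, and the authors' deposited table gave 0.55, 1.03 and -0.52 on the log2 scale, with 0.12 for HOXB8, not called there. HOXB8 thus stood at 0.77 in the count table and near 0 in the authors' deposited table at 7 days, while at 4 days the authors' deposited table gave 0.71 and called it. HOXB6 went the other way, since the authors' deposited tables called it higher at 2 and 4 days of both inhibitors (0.54 on day 4 of MS023), and edgeR did not (0.37 ± 0.15 SE, edgeR adjusted p = 0.0957). The cause of these differences was not tested.

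The genes whose pattern was most like that of HOXB8 over the 15 group means of log2 CPM were FABP5P3 (r = 0.961), FOXA3 (r = 0.923), AC005332.4 (r = 0.922), ZIC2 (r = 0.898) and CDKN1B (r = 0.895), among 18485 genes averaging 1 CPM or more. The groups share untreated and inhibitor conditions, and the values are a description.

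Transcripts of the clusters that encode no HOX protein moved with some members that they overlap and not with others. Of 17 tested, 1 rose and 1 fell with Dex at 3 h (10.5% of all genes were called), where the median of the list was -0.11 on the log2 scale. HOXC13-AS, which shares 7.10% of the exonic bases of HOXC13 on the other strand, rose like HOXC13, by 1.91 ± 0.58 (SE), edgeR adjusted p = 0.0234. It was low, with 274 counts over the 30 libraries together and 0.51 ± 0.41 (SD) CPM untreated. HOXA-AS2, which overlaps HOXA3 and HOXA4 on the other strand, fell like HOXA3, by -0.94 ± 0.15 (SE), edgeR adjusted p = 4.1e-06. HOXA4 did not fall with it, at 3.08 and 2.32 CPM with Dex for 3 h against 2.67 and 2.62 untreated, and was not called. With 7-day GSK591, averaged, 1 of the 17 rose and none fell, where 33.7% of all genes were called. It was HOXC-AS3 (0.94 ± 0.21 SE, edgeR adjusted p = 0.000336), and HOXC10, which it overlaps on the other strand, was called in no comparison. With 7-day MS023, averaged, 1 of the 17 rose and 1 fell, where 35.8% of all genes were called. HOXB-AS1, which overlaps HOXB2 and HOXB3, rose (1.00 ± 0.21 SE, edgeR adjusted p = 0.000192), and HOXC13-AS fell relative to the median gene (-0.99 ± 0.36 SE, edgeR adjusted p = 0.027). HOXC13 did not follow it there and was not called, with a mean of 13.4 CPM over 6 libraries against 12.8 without inhibitor. HAGLR, which covers much of HOXD1 on the other strand, stood at 0.13 ± 0.28 (SE), edgeR adjusted p = 0.761, with GSK591 and at 0.056 ± 0.26 (SE), edgeR adjusted p = 0.892, with MS023, and was not called. On total counts 14 of these 17 rose with MS023 and none fell, and without mitochondrial and ribosomal RNA in the totals 7 rose and none fell. How far shared reads carry these parallels was not tested.

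For the lists that follow, 10.5% of all genes were called with Dex at 3 h, 33.7% with averaged GSK591 and 35.8% with averaged MS023, and nothing is read from a list's count near these shares. Genes that flank the clusters changed in both directions. Of 20 tested, 4 rose and 5 fell with averaged GSK591 (list median -0.18, all genes 0.0040) and 4 rose and 3 fell with averaged MS023 (-0.025, all genes 0.0049). TTLL6, beside HOXB, rose with both, by 1.27 ± 0.12 (SE), edgeR adjusted p = 1.56e-12, and 1.27 ± 0.11 (SE), edgeR adjusted p = 5.88e-13. EVX1, beside HOXA, changed by 1.70 ± 0.47 (SE), edgeR adjusted p = 0.0037, with GSK591, and EVX2, beside HOXD, by 1.02 ± 0.31 (SE), edgeR adjusted p = 0.0073, with MS023. Both were low, with 180 and 309 counts over the 30 libraries together and means of 0.586 and 0.938 CPM.

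Of 8 tested cofactors of the TALE class, which bind DNA together with HOX proteins, 2 fell and none rose with Dex at 3 h, among them MEIS2 (-0.80 ± 0.20 SE, edgeR adjusted p = 0.00346). MEIS2 was not called under total-count scaling. With averaged GSK591, 1 rose and 2 fell, and with averaged MS023 1 rose and none fell (7 rose on total counts).

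Among 31 Polycomb genes, which all passed the filter, 15 fell and 1 rose with averaged GSK591 (list median -0.26), and with averaged MS023 13 fell and 3 rose on the TMM scale (-0.20), but with 26 higher and 1 lower on total counts and 8 higher and 5 lower on totals without mitochondrial and ribosomal RNA. The smallest adjusted p with GSK591 were those of PHF19 (-0.59), CBX2 (-0.61), PHF1 (-0.57) and SCMH1 (-0.72). SUZ12, a core subunit of the complex that methylates histone H3, changed by -0.67 ± 0.094 (SE), edgeR adjusted p = 1.58e-07, with GSK591. Among 22 trithorax, MLL and related genes, 2 rose and 5 fell with GSK591 and 4 rose and 5 fell with MS023, led by HCFC1 (-0.61) and MLLT3 (0.66). On total counts all 22 were higher with MS023, and 11 without mitochondrial and ribosomal RNA in the totals, with none lower.

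Of 14 tested CDX and retinoic acid genes, 1 rose and 3 fell with Dex at 3 h. CYP26B1, which breaks down retinoic acid, changed by -1.43 ± 0.21 (SE), edgeR adjusted p = 7.41e-07, and CDX2, a regulator of HOX genes in the trunk and gut, by -1.44 ± 0.46 (SE), edgeR adjusted p = 0.0305. On total counts 0 of the 14 were higher and 1 lower with Dex at 3 h, and without mitochondrial and ribosomal RNA in the totals 1 and 3. With averaged MS023, 4 rose and 4 fell on the TMM scale. CDX2 (1.57 ± 0.21 SE, edgeR adjusted p = 4.95e-08) and ALDH1A2, which makes retinoic acid (1.71 ± 0.31 SE, edgeR adjusted p = 1.76e-05), were among those that rose. ALDH1A2 was low, with a mean of 0.565 CPM untreated and 2.90 at 7 days of MS023 without Dex. In the same groups CYP26B1 had means of 12.6 and 21.9 CPM, and ALDH1A1 had 176 ± 58 (SD) and 79.1 ± 15 (SD). Retinoic acid itself was not measured. With averaged GSK591, 1 rose and 6 fell, led by DHRS3 (-0.78 ± 0.082 SE, edgeR adjusted p = 7.94e-11). On total counts 13 of the 14 were higher with MS023 and none lower.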

How the data were processed

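PRO-seq reads of A549 cells were counted per gene by the authors, and the deposited table holds raw counts for 58780 genes in 30 libraries. The counts were made with featureCounts 2.0.1 on hg38, per the submitters' processing notes, and the aligner, the strand setting and the feature counted are not given in the sources used here. The authors also deposited DESeq2 tables against untreated cells, per the file headers with a mean normalised signal, log2 fold changes and p-values, which come from another counting and were only quoted.

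Genes passing filterByExpr (minimum count 10, minimum total 15; 22919 genes) were fitted with 15 group means in edgeR 4.0.16, using TMM scaling, the robust quasi-likelihood test and Benjamini-Hochberg adjustment over all genes tested, with a threshold of 0.05. Exon lengths and overlaps came from GENCODE 29, whose identifiers matched all 58780 rows. Alternatives were DESeq2 1.42.0, other scalings, no filter, the compared groups alone, a replicate block, no mitochondrial or ribosomal RNA genes, and each library left out. The fit was tested on simulated data. Total counts ran from 8441211 to 13069598 per library.

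Members and context lists were chosen with earlier results of these data known. Named were every member called, the 12 members called in the most comparisons (in every library), the highest and lowest member per kb of each cluster, and those never called; counts and sums cover all members, but values of some named items are not reported here. The named context genes were chosen after their values were seen.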

Additional observations from a re-analysis of the deposited data

How the results depend on the processing

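Counts of called HOX genes with TMM were 0 for Dex 15 min, 4 for Dex 3 h, 0 for GSK591 2 days, 2 for GSK591 4 days, 2 for GSK591 7 days, 3 for MS023 2 days, 4 for MS023 4 days, 5 for MS023 7 days, 0 for Dex with GSK591 3 h, 0 for Dex with MS023 3 h, 2 for Dex 15 min after GSK591, 2 for Dex 3 h after GSK591, 1 for Dex 15 min after MS023, 6 for Dex 3 h after MS023, 5 for GSK591 then Dex 15 min, 5 for GSK591 then Dex 3 h, 4 for MS023 then Dex 15 min, 3 for MS023 then Dex 3 h, 8 for GSK591 averaged, 11 for MS023 averaged, 15 for GSK591 against MS023 averaged, 0 for GSK591 by Dex 3 h interaction and 0 for MS023 by Dex 3 h interaction. Total counts as the only scaling gave 1 for Dex 15 min, 1 for Dex 3 h, 6 for GSK591 4 days, 0 for GSK591 7 days, 17 for MS023 2 days, 22 for MS023 4 days, 29 for MS023 7 days, 0 for Dex 15 min after GSK591, 1 for Dex 3 h after GSK591, 0 for Dex 15 min after MS023, 3 for Dex 3 h after MS023, 0 for GSK591 then Dex 3 h, 9 for MS023 then Dex 15 min, 21 for MS023 then Dex 3 h, 4 for GSK591 averaged, 31 for MS023 averaged and 32 for GSK591 against MS023 averaged. Totals without mitochondrial and ribosomal RNA, a scaling chosen after seeing the data, gave 1 for Dex 15 min, 5 for MS023 2 days, 13 for MS023 4 days, 11 for MS023 7 days, 1 for Dex 3 h after GSK591, 0 for Dex 15 min after MS023, 9 for MS023 then Dex 3 h and 21 for MS023 averaged. DESeq2 gave 2 for Dex 3 h, 1 for GSK591 7 days, 3 for MS023 7 days, 0 for Dex 15 min after GSK591, 0 for Dex 3 h after GSK591, 0 for Dex 15 min after MS023, 3 for Dex 3 h after MS023, 2 for GSK591 then Dex 15 min, 0 for GSK591 then Dex 3 h, 2 for MS023 then Dex 15 min, 1 for MS023 then Dex 3 h, 5 for GSK591 averaged, 7 for MS023 averaged and 8 for GSK591 against MS023 averaged. A fit of only the compared groups gave 1 for Dex 15 min, 3 for GSK591 2 days, 1 for Dex 15 min after GSK591, 3 for GSK591 then Dex 15 min and 1 for MS023 then Dex 3 h. No filter on low counts gave 1 for Dex 15 min, 4 for Dex 15 min after GSK591, 1 for GSK591 then Dex 3 h and 1 for MS023 then Dex 3 h. The labels share replicate numbers between groups but do not say that these mark a common culture or day. Same-numbered libraries deviated together with r over 0.1 in 11 of 105 pairs of groups (-0.33 to 0.36, median 0.014), so the numbers were not taken to pair the samples. A replicate block moved the count for GSK591 2 days to 1, and no other count by over 1.5 times. DESeq2 size factors, or leaving out the mitochondrial and ribosomal RNA genes, moved no count by over 1.5 times. Counts not listed for a setting stayed within 1.5 times. With each library left out in turn, where a lone library is assumed to vary like the other groups, the counts ran from 1 to 2 for Dex 3 h, 0 to 1 for GSK591 2 days, 1 to 2 for GSK591 4 days, 0 to 1 for GSK591 7 days, 3 to 4 for MS023 7 days, 0 to 3 for Dex 15 min after GSK591, 0 to 1 for Dex 3 h after GSK591, 0 to 0 for Dex 15 min after MS023, 3 to 4 for Dex 3 h after MS023, 1 to 4 for GSK591 then Dex 15 min, 0 to 1 for GSK591 then Dex 3 h, 0 to 4 for MS023 then Dex 15 min and 1 to 2 for MS023 then Dex 3 h, and elsewhere stayed within 1.5 times. In GSK591 against MS023, total counts reversed HOXB5 to -0.39 and HOXA2 to -0.17. The cause of these changes was not tested. Of the 82 calls, 27 held without each library and under all of the 7 planned settings that gave an adjusted p, and 71 kept their sign throughout. The depth of 1603 to 4193 HOX counts and 2 libraries a group limits low members, and the scaling limits directions with MS023.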
